A study of Mus musculus with 4 samples.

Results

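The genes described here are the core of MHC class I antigen presentation in the mouse: the classical heavy chains H2-K1 and H2-D1, their light chain B2m, the peptide transporter subunits Tap1 and Tap2, the loading factor Tapbp (tapasin), the immunoproteasome subunits Psmb8, Psmb9 and Psmb10, and the transactivator Nlrc5. They were taken by gene symbol from the table, and all 10 were present among its 31828 genes. Levels were compared between AML12 (alpha mouse liver 12) cells grown on plain dishes as a monolayer (2D, 2 libraries) and inside Matrigel, a gel of basement membrane proteins (3D, 2 libraries). AML12 is a single immortalised hepatocyte line from a mouse carrying a human TGF-alpha transgene. Both cultures received the same medium with serum, insulin, transferrin, selenium and dexamethasone, and both were held at the entry to S phase by 1 mM hydroxyurea, a blocker of DNA synthesis, for 24 h in 2D and 36 h in 3D. Culture and time in hydroxyurea therefore cannot be told apart. The labels call the libraries of a culture replicates and do not say whether they came from separate cultures, so p-values measure the spread between these libraries, which may be technical.

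Class I molecules show peptides from the inside of a cell to CD8 T cells and engage receptors on natural killer cells. Proteasomes cut cytosolic proteins, the TAP transporter carries the peptides into the endoplasmic reticulum, and tapasin, calreticulin and ERp57 hold the empty heavy chain and beta-2-microglobulin dimer at the transporter until a peptide binds. Interferon-gamma raises most of the pathway, in part through IRF1, and exchanges the constitutive catalytic subunits of the proteasome for the induced ones, while NLRC5, which is itself induced by interferon, joins RFX, CREB/ATF and NF-Y factors on the promoters of class I genes. Resting hepatocytes carry little class I at their surface and raise it in response to interferon.

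The promoter letters that these factors read are shown first, since the heavy chain genes and B2m hold all 4 kinds searched for and the other genes fewer. Of the 10 genes, 8 had an entry in the RefSeq promoter table (GRCm38.p6). Tap2 and Nlrc5 had none. The 250 bases before each start were searched on both strands for AANNGAAA (an IRF element), an NF-kB element (GGG, 2 free bases, TT, 1 free base, CC), TGACG (the X2 element of the class I and class II promoter module, read by CREB/ATF factors) and CCAAT (the Y element, read by NF-Y). In the sequences below these letters, or their reverse complement, are in capitals, and all sequences are written 5′ to 3′ along the gene's strand. Whole windows are given for B2m and H2-K1, at chr2:122147437-122147685 (plus strand, 249 bases) and chr17:34000348-34000597 (minus strand, 250 bases), as examples of a light chain and a heavy chain promoter.
B2m promoter: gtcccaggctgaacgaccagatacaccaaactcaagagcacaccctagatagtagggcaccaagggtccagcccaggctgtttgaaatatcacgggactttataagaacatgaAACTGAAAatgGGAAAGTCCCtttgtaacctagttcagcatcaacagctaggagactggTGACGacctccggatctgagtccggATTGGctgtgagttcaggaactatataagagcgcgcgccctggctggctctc
H2-K1 promoter: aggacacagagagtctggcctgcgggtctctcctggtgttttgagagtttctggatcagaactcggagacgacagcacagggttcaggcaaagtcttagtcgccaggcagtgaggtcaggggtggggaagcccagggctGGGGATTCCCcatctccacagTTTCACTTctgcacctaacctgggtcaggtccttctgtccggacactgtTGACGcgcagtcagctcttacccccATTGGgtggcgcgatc

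The IRF and NF-kB elements lay side by side in the heavy chain and light chain genes, as the following stretches of 30 bases show, with a stretch of Tap1 around its X2 element for comparison. They lie at chr17:34000429-34000458 (minus strand, positions -111 to -82 from the start), chr17:35262923-35262952 (plus strand, -171 to -142), chr2:122147547-122147576 (plus strand, -140 to -111) and chr17:34187458-34187487 (plus strand, -98 to -69).
H2-K1: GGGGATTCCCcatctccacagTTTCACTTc
H2-D1: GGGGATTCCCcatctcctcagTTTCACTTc
B2m: tgaAACTGAAAatgGGAAAGTCCCtttgta
Tap1: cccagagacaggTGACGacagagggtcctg
The H2-K1 and H2-D1 stretches differed at 1 of 30 bases, A18T, with the H2-K1 base first and positions counted from 1 at the 5′ end of the stretch. In both, the NF-kB letters came before the IRF letters, whereas in B2m the IRF letters came first. Positions are counted from the RefSeq start, which can differ from the gene bounds given below. The H2-D1 stretch lies inside the bounds of that gene (35262730 to 35267499).

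Over the 8 genes with an entry, the IRF element was found in 3 (H2-K1, H2-D1 and B2m) and the NF-kB element in the same 3. Among 32851 windows of this length in RefSeq, the IRF element was present in 21.3% and the NF-kB element in 4.11%. The X2 element was found in 5 of the 8 (B2m, H2-K1, H2-D1, Psmb9 and Tap1) against 17.8% of windows, and the Y element in these 5 and Tapbp against 33.8%. The windows of Psmb8 and Psmb10 held none of the 4. A match describes letters only, and the absence of one says only that those letters are not in that window.

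Levels are given as TPM, which is corrected for transcript length and can therefore be compared between genes. Of the 10 genes, 8 had a mean of at least 1 TPM over the 4 libraries and were tested with limma on log2(TPM + 1), with p-values adjusted over all 14116 genes that reached this level. At an adjusted p under 0.05, 5 of the 8 were higher in 3D (H2-K1, H2-D1, B2m, Tapbp and Psmb10), 2 were lower (Tap1 and Nlrc5) and Psmb9 did not pass. Tap1 reached the filter only through 2D, where it is the higher (3D mean 0.813 TPM), so these counts describe the genes that reached it. Of all genes tested, 23.4% were higher, 27.1% lower and 50.5% called in either direction, so a call by itself does not set these genes apart. The libraries of the cultures did not overlap for 7 of the 8, 5 upward and 2 downward, beside 77.5% of all tested genes (35.9% upward and 41.6% downward). Their median difference was 0.25 on the log2 scale, beside -0.036 for all tested genes, and single genes ran from -0.93 for Nlrc5 to 1.27 for Tapbp. Fewer cells of a kind and less RNA per cell cannot be told apart in these bulk libraries.

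**Figure D1:**
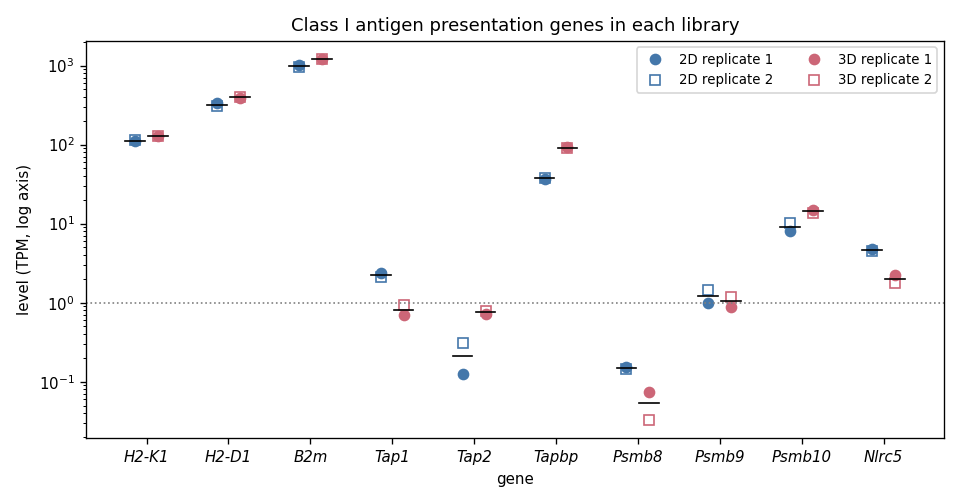
Level of each of the 10 genes in each library, in TPM on a log axis; points are single libraries (filled for replicate 1, open squares for replicate 2, 2D in blue and 3D in red), black bars are culture means and the dotted line marks the filter of 1 TPM. The heavy and light chains lie above 100 TPM in all libraries, and the mean of Tapbp moves from 37.3 to 91.3 TPM. Tap2, Psmb8 and Psmb9 lie near or under 1 TPM, and Tap1 lies at 2.39 and 2.10 TPM in 2D and under 1 TPM in 3D.

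The levels spanned a wide range, from B2m at 1221 TPM in 3D replicate 1 down to Psmb8 at 0.0326 TPM in 3D replicate 2. In 2D the order of the culture means was B2m, H2-D1, H2-K1, Tapbp, Psmb10, Nlrc5, Tap1, Psmb9, Tap2 and Psmb8. Neighbours in this order did not overlap between their libraries, except Tap2 (0.124 and 0.305 TPM) and Psmb8 (0.155 and 0.147 TPM). In 3D the first 6 places were the same, and Psmb9, Tap1, Tap2 and Psmb8 followed. There the libraries of Psmb9 (0.886 and 1.19 TPM) overlapped those of Tap1 (0.694 and 0.933 TPM), and those of Tap1 overlapped those of Tap2 (0.716 and 0.789 TPM). B2m stood at rank 108 in both 2D libraries and at ranks 73 and 82 in the 3D libraries among all 31828 genes.

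The first question was whether the transcripts of the class I dimer changed between the cultures. The dimer itself, a protein, was not measured. H2-K1 (ENSMUSG00000061232, GRCm38 chromosome 17, 33996017 to 34000333, minus strand), one of the classical heavy chains, was at 111.1 and 113.3 TPM in 2D and at 130.0 and 128.7 TPM in 3D. Both 3D libraries lay above both 2D libraries. The means were 112 ± 1.52 and 129 ± 0.936 TPM (SD, n = 2 each), a difference of 0.20 on the log2 scale (SE 0.040, 95% confidence interval 0.10 to 0.31, limma adjusted p = 0.0136).

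H2-D1 (ENSMUSG00000073411, chromosome 17, 35262730 to 35267499, plus strand), the heavy chain at the other end of the cluster, was at 330.9 and 311.6 TPM in 2D and at 384.2 and 405.1 TPM in 3D. Again the 3D libraries were the higher ones without overlap. Its means were 321 ± 13.7 and 395 ± 14.8 TPM (SD, n = 2 each), a difference of 0.30 (SE 0.050, interval 0.16 to 0.43, limma adjusted p = 0.00896). The calls of both heavy chains rested on few libraries: H2-K1 had a limma adjusted p of 0.0866 without 3D replicate 1 and 0.0745 without 3D replicate 2, and H2-D1 one of 0.0604 without 3D replicate 2.

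B2m (ENSMUSG00000060802, chromosome 2, 122147686 to 122153083, plus strand) encodes beta-2-microglobulin, without which the heavy chains do not fold or leave the endoplasmic reticulum. It was at 1007 and 948 TPM in 2D and at 1221 and 1199 TPM in 3D, with no overlap. The means were 977 ± 41.9 and 1210 ± 15.4 TPM (SD, n = 2 each), and the difference of 0.31 (SE 0.042, interval 0.20 to 0.42, limma adjusted p = 0.00473) kept its call in all alternatives run.

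The light chain and the heavy chains kept nearly the same proportion. The ratio of B2m to the sum of H2-K1 and H2-D1, in TPM, was 2.28 and 2.23 in 2D and 2.37 and 2.25 in 3D, and these ranges overlap. H2-D1 was 2.98 and 2.75 times H2-K1 in 2D and 2.96 and 3.15 times in 3D, which also overlap. The heavy chains are closely related paralogs and are polymorphic between strains, so the split of reads between them is uncertain. The class I alleles of AML12 may also differ from the reference to which the reads were aligned, and the part of this in these levels was not tested. The sum of H2-K1 and H2-D1, which the split between them does not touch, was 442.0 and 424.8 TPM in 2D and 514.2 and 533.7 TPM in 3D. This was a difference of 0.27 (SE 0.041, limma adjusted p = 0.00622). Reads shared with other class I genes and the alleles could still move it. With 27 class I rows summed (those of H2-K, H2-D, H2-Q, H2-T and H2-M genes), the values were 480.4 and 462.8 TPM in 2D and 583.2 and 601.7 TPM in 3D (difference 0.33, SE 0.039, limma adjusted p = 0.00325).

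The next group serves peptide transport and loading, and its genes went in different directions. Tapbp (ENSMUSG00000024308, chromosome 17, 33915899 to 33929288, plus strand) encodes tapasin, which bridges the class I dimer to the transporter and favours well-fitting peptides. It was at 36.3 and 38.3 TPM in 2D and at 92.5 and 90.1 TPM in 3D. The means of 37.3 ± 1.42 and 91.3 ± 1.71 TPM (SD, n = 2 each) were 2.45-fold apart, and the gene moved from ranks 5145 and 5033 to ranks 2143 and 2183. The difference was 1.27 on the log2 scale (SE 0.05, interval 1.13 to 1.41, limma adjusted p = 0.000323), and 2.72% of the tested genes had a higher one. On the same strand, Zbtb22, a zinc finger gene, overlaps Tapbp by 3421 bases, so the split of reads between them is uncertain. Zbtb22 itself was at 34.8 and 37.5 TPM in 2D and 38.2 and 38.2 TPM in 3D (difference 0.078, limma adjusted p = 0.335).

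Tap1 (ENSMUSG00000037321, chromosome 17, 34187553 to 34197225, plus strand), a subunit of the transporter, went the other way. It was at 2.39 and 2.10 TPM in 2D and at 0.694 and 0.933 TPM in 3D, with both 3D libraries below both 2D libraries. The means were 2.25 ± 0.207 and 0.813 ± 0.169 TPM (SD, n = 2 each), 2.76-fold lower in 3D, and the difference was -0.84 on the log2(TPM + 1) scale (SE 0.14, interval -1.22 to -0.47, limma adjusted p = 0.00892). This scale understates the change of genes at such low levels. Tap1 was tested because of its 2D level, and in a fit without a filter its limma adjusted p was 0.0207. Tap2 (ENSMUSG00000024339, chromosome 17, 34203527 to 34216321, plus strand), the partner that Tap1 needs to form a transporter, was at 0.124 and 0.305 TPM in 2D and at 0.716 and 0.789 TPM in 3D. Its libraries separated upward, as they did for 24.8% of all genes of the table, but its mean was under the filter, and in a fit without a filter its difference of 0.53 (SE 0.13) had a limma adjusted p of 0.0576. That fit called 8.74% of genes higher and 10.0% lower.

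The transporter subunits were thus both at or under a few TPM in either culture, far below tapasin. Tapbp was 15.2 and 18.2 times Tap1 in the 2D libraries and 133 and 96.5 times in the 3D libraries. As a share of B2m, Tap1 was 0.238% and 0.222% in 2D and 0.0568% and 0.0778% in 3D. Tapbpl (TAPBPR), a tapasin homologue that edits peptides away from the transporter, was at 14.2 and 13.8 TPM in 2D and 17.6 and 17.8 TPM in 3D. It rose by 0.32 on the log2 scale (SE 0.066, limma adjusted p = 0.0155), a call lost without 2D replicate 2 (0.0505), 3D replicate 1 (0.0754) or 3D replicate 2 (0.0824).

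The immunoproteasome subunits were low throughout and also differed among themselves. Psmb10 (MECL-1; ENSMUSG00000031897, chromosome 8, 105935735 to 105938444, minus strand) was at 8.05 and 10.2 TPM in 2D and at 15.0 and 13.8 TPM in 3D, without overlap. The means of 9.13 ± 1.54 and 14.4 ± 0.834 TPM (SD, n = 2 each) were 1.57-fold apart, with a difference of 0.61 (SE 0.13, interval 0.27 to 0.95, limma adjusted p = 0.0176). That call was lost without 3D replicate 1 (0.0821) or 3D replicate 2 (0.0552). Psmb9 (LMP2; ENSMUSG00000096727, chromosome 17, 34181988 to 34187764, minus strand) was at 0.993 and 1.43 TPM in 2D and 0.886 and 1.19 TPM in 3D. Its libraries overlapped, and its difference of -0.12 (SE 0.17) had an interval of -0.57 to 0.34 (limma adjusted p = 0.600). Psmb8 (LMP7; ENSMUSG00000024338, chromosome 17, 34197721 to 34201454, plus strand) was at 0.155 and 0.147 TPM in 2D and 0.0744 and 0.0326 TPM in 3D. Its libraries separated downward, as did those of 29.4% of all genes of the table, and at this level it was not tested. In the fit without a filter its difference was -0.13 (limma adjusted p = 0.293).

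Each induced subunit takes the place of a constitutive one: Psmb8 that of Psmb5, Psmb9 that of Psmb6 and Psmb10 that of Psmb7. The constitutive subunits were at 174 ± 3.03, 398 ± 23.9 and 158 ± 9.25 TPM in 2D and at 147 ± 5.91, 363 ± 1.68 and 152 ± 1.72 TPM in 3D (SD, n = 2 each). Psmb5 fell by 0.25 on the log2 scale (SE 0.047, limma adjusted p = 0.0125; 0.0767 without 3D replicate 1), while Psmb6 (-0.13, 0.0932) and Psmb7 (-0.049, 0.491) did not pass. Psmb10 amounted to 4.89% and 6.75% of Psmb7 in 2D and to 9.74% and 9.12% in 3D, with no overlap. Psmb9 amounted to 0.239% and 0.376% of Psmb6 in 2D and to 0.243% and 0.328% in 3D. Psmb8 amounted to 0.0876% and 0.0852% of Psmb5 in 2D and to 0.0522% and 0.0216% in 3D. The 3 induced subunits together made up 1.20% and 1.65% of the 6 catalytic subunits in 2D and 2.35% and 2.21% in 3D, most of it Psmb10. On the log2 scale with a pseudocount of 1, the ratio to the constitutive partner differed by 0.66 for Psmb10, 0.015 for Psmb9 and 0.12 for Psmb8. With a pseudocount of 0.1 the values for Psmb9 and Psmb8 changed sign (-0.069 and -0.47), so no direction can be read for them. With 2 libraries a culture, these ratios were not tested.

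**Figure D2:**
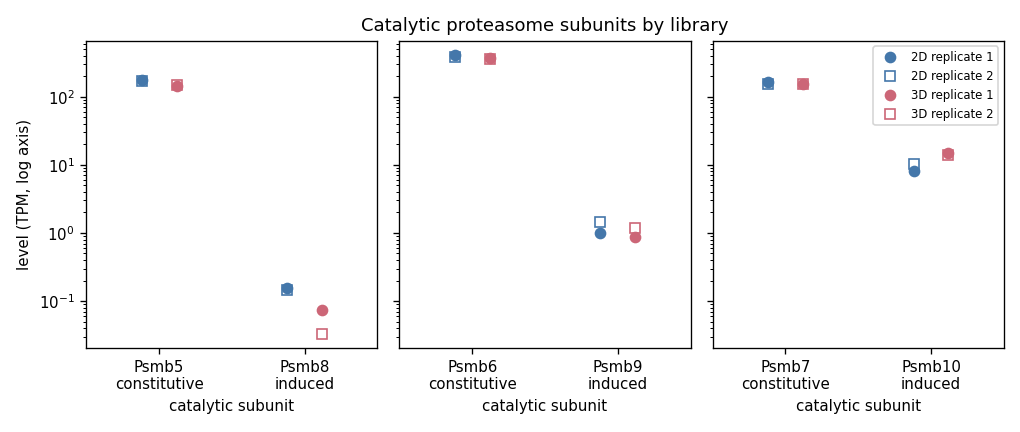
Levels in TPM (log axis) of each constitutive catalytic proteasome subunit and the induced subunit that replaces it, by library; filled circles are replicate 1, open squares replicate 2, 2D in blue and 3D in red. The constitutive subunits lie between 143 and 415 TPM, Psmb10 between 8.05 and 15.0 TPM, Psmb9 near 1 TPM and Psmb8 under 0.2 TPM.

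Nlrc5 (ENSMUSG00000074151, chromosome 8, 94434356 to 94527272, plus strand) encodes the transactivator of class I genes. It was at 4.84 and 4.54 TPM in 2D and at 2.21 and 1.78 TPM in 3D, so both 3D libraries were lower. The means were 4.69 ± 0.213 and 1.99 ± 0.306 TPM (SD, n = 2 each), 2.35-fold lower in 3D. The difference was -0.93 (SE 0.12, interval -1.26 to -0.60, limma adjusted p = 0.00452), and 4.80% of the tested genes had a lower one. A lincRNA on the opposite strand, 9330175E14Rik, overlaps it by 748 bases and was also lower, at 5.88 ± 1.16 against 3.69 ± 0.396 TPM (SD, n = 2 each; -0.55, limma adjusted p = 0.0410). The libraries were stranded. Nlrc5 and its textbook targets H2-K1, H2-D1, B2m, Tap1 and Psmb9 did not share a direction in these cultures: Nlrc5 and Tap1 fell, H2-K1, H2-D1 and B2m rose, and Psmb9 did not pass.

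**Figure D3:**
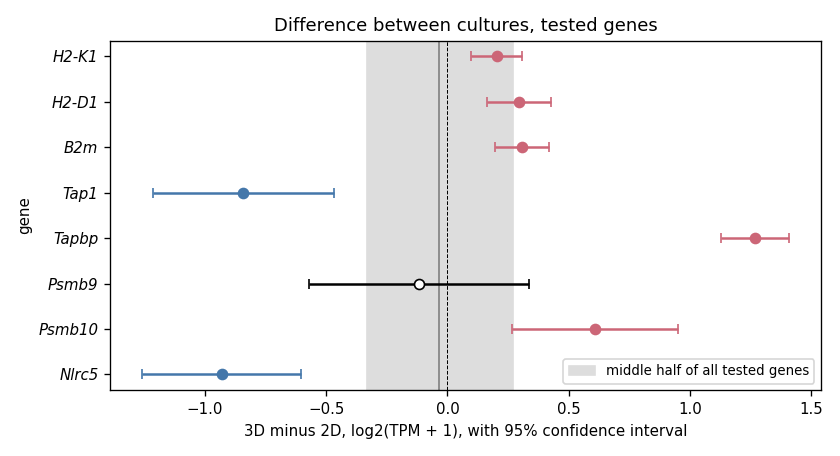
Difference between 3D and 2D on the log2(TPM + 1) scale for the 8 tested genes, with 95% confidence intervals from limma; red is higher in 3D, blue is lower, and the open point did not pass. The grey band, from -0.33 to 0.27, holds the middle part of all tested genes (between the quartiles), and Tapbp, Nlrc5 and Tap1 lie outside it with their whole intervals.

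The other genes of the pathway were taken by their roles. Errors beside means are SDs over the 2 libraries of a culture. Each list count below is to be read beside the shares over all tested genes, 23.4% higher and 27.1% lower. Of 12 genes for peptide loading and folding in the endoplasmic reticulum, 5 rose, 4 fell and 3 did not pass, with a median of -0.012 that changed sign under 3 other scalings. At a threshold of 0.01, or without 3D replicate 1 or 3D replicate 2, 2 rose and 2 fell. Calr, the calreticulin of the loading complex, rose from 1262 ± 13.5 to 1603 ± 22.1 TPM (0.34, limma adjusted p = 0.00159). Its oxidoreductase partner Pdia3 (ERp57) fell from 815 ± 12.7 to 671 ± 1.87 TPM (-0.28, limma adjusted p = 0.00301). Hspa5 (BiP) was at 391 and 826 TPM in the 2D libraries and at 837 and 854 TPM in 3D and did not pass (limma adjusted p = 0.239). Erap1, which trims peptides inside the endoplasmic reticulum, rose from 6.03 ± 0.216 to 10.8 TPM in both 3D libraries (0.75, limma adjusted p = 0.00246).

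Genes of the constitutive proteasome moved little and, where called, downward. Of the 14 subunits of the constitutive 20S core, 8 fell, none rose and 6 did not pass, with a median of -0.22, beside 27.1% lower among all tested genes. The falls numbered 4 without 3D replicate 1 and 3 at a threshold of 0.01, and 1 subunit rose without 2D replicate 1. Of 18 genes of the 19S cap, 8 fell, none rose and 10 did not pass (median -0.17; 5 fell without 3D replicate 2). Among 10 activators and assembly factors, 2 (20%) rose and 3 (30%) fell, near the 23.4% and 27.1% of all tested genes (median -0.063). At a threshold of 0.01, 1 rose and 1 fell. Psme2, a subunit of the PA28 activator that interferon-gamma induces, rose from 78.8 ± 0.975 to 105 ± 8.49 TPM (0.41, limma adjusted p = 0.00797), whereas its partner Psme1 was at 47.5 ± 1.43 and 48.6 ± 5.61 TPM (0.026, 0.835). Pomp, which helps to assemble the core, fell from 72.9 ± 1.65 to 54.3 ± 3.13 TPM (-0.42, limma adjusted p = 0.00552).

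Of 7 cytosolic peptidases that trim or destroy proteasome products, 2 rose and 3 fell, beside 23.4% and 27.1% of all tested genes. Thop1 (thimet oligopeptidase, which degrades class I peptides) rose from 65.1 ± 1.57 to 126 ± 1.09 TPM (0.94, limma adjusted p = 0.000407). Npepps (puromycin-sensitive aminopeptidase) rose from 59.2 ± 8.78 to 113 ± 6.95 TPM (0.93, limma adjusted p = 0.00352). The list's median was 0.0097 and changed sign without 2D replicate 1, 2D replicate 2 or 3D replicate 2.

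Of 23 listed nonclassical class I and class I-like genes, 11 were tested. Of these 8 rose, 2 fell and 1 did not pass, with a median of 0.64, but 2 of the risers, H2-K2 and Azgp1, reached the filter only through 3D, where they are high. Of the 9 with a mean of at least 1 TPM in both cultures, 6 rose and 2 fell (median 0.60), beside 23.1% and 26.7% of all tested genes with such means. The median over all 23 without a filter was 0.10, and that of the 11 without 3D replicate 1 was 0.63. With a filter of 5 TPM, which fewer genes reached, 3 rose and 1 fell (median 0.54). Reads of H2-Q, H2-T and H2-M genes can be split among paralogs. H2-M2 went from 5.01 and 5.09 TPM in 2D to 21.8 and 22.9 TPM in 3D (1.95, SE 0.075, limma adjusted p = 0.000295). H2-Q4 rose from 12.0 ± 0.578 to 18.6 ± 0.180 TPM (0.60, limma adjusted p = 0.00344), and H2-T10 from 8.75 ± 0.0443 to 12.6 ± 0.795 TPM (0.48, limma adjusted p = 0.00934). H2-T23 (Qa-1), which presents heavy chain leader peptides to natural killer cells, was at 0.465 and 0.335 TPM in 2D and 0.962 and 1.06 TPM in 3D and was not tested.

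Among the more distant relatives, Hfe, a regulator of hepcidin that binds beta-2-microglobulin, rose from 1.79 ± 0.356 to 4.70 ± 0.621 TPM (1.03, limma adjusted p = 0.00587). Mr1, which presents vitamin B metabolites, rose from 1.37 ± 0.179 to 3.69 ± 0.514 TPM (0.98, limma adjusted p = 0.00542). Azgp1, a secreted class I-like protein, went from 0.161 ± 0.0232 to 3.27 ± 0.600 TPM, and was tested only through its 3D level (1.87, limma adjusted p = 0.00130). Procr, the endothelial protein C receptor, fell from 37.8 ± 1.36 to 18.0 ± 1.05 TPM (-1.03, limma adjusted p = 0.000815), and H2-M3, which presents formylated peptides, from 3.49 ± 0.0120 to 2.05 ± 0.238 TPM (-0.56, limma adjusted p = 0.0164).

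Of 4 tested NKG2D ligands, class I-like stress markers that natural killer cells read, 1 rose and 2 fell. Among all tested genes 23.4% were higher and 27.1% lower. Ulbp1 was the most abundant, at 67.9 and 76.7 TPM in 2D and 65.9 and 62.8 TPM in 3D, and did not pass (-0.16, limma adjusted p = 0.134). Raet1d fell from 5.50 ± 0.806 to 3.27 ± 0.255 TPM (-0.60, limma adjusted p = 0.0188), a call lost in 4 of 15 alternatives. Raet1e went from 6.81 ± 0.231 to 4.68 ± 0.928 TPM (-0.47, limma adjusted p = 0.0470), a call lost in 10 of 16 alternatives.

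**Figure D4:**
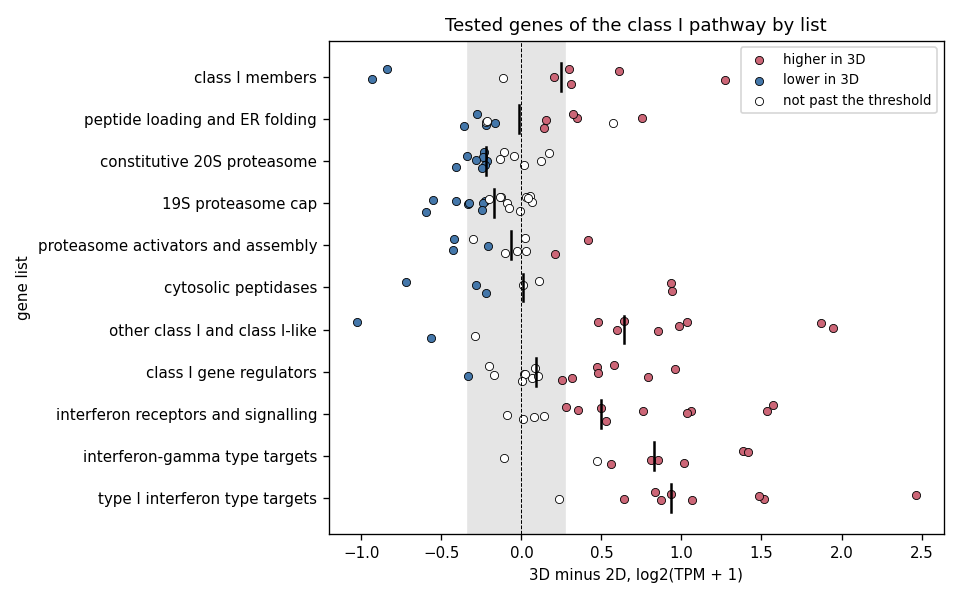
Difference between 3D and 2D on the log2(TPM + 1) scale for each tested gene of the class I genes and of the 10 further lists named on the axis; red points are higher in 3D, blue lower and white not past the threshold, vertical bars are list medians, and the grey band lies between the quartiles of all tested genes. Among the lists drawn, medians run from -0.22 for the constitutive 20S core to 0.94 for the type I interferon type targets.

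The factors that act on class I promoters were examined next. Of 17 regulators 16 were tested, of which 7 rose, 1 fell and 8 did not pass (median 0.094). The shares were 43.8% and 6.25%, beside 23.4% higher and 27.1% lower among all tested genes. The risers numbered 4 without 2D replicate 1, and 3 without 3D replicate 1, without 3D replicate 2 or at a threshold of 0.01. Irf1, an activator that binds IRF elements, was at 37.4 and 34.1 TPM in 2D and at 65.4 and 75.6 TPM in 3D (0.96, SE 0.093, limma adjusted p = 0.00193). Nfkb1 rose from 71.7 ± 9.55 to 99.8 ± 2.26 TPM (0.48, limma adjusted p = 0.0162), while Rela, at 411 ± 16.5 and 442 ± 0.338 TPM, did not pass (0.10, 0.102). Irf2, an antagonist of IRF1 at many promoters, was the gene that fell, from 82.5 ± 2.79 to 65.1 ± 2.21 TPM (-0.34, limma adjusted p = 0.00730).

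The same list holds the proteins that NLRC5 joins on the promoter module. Rfx5 went from 50.7 ± 0.0936 to 44.0 ± 5.01 TPM and did not pass (-0.20, limma adjusted p = 0.117). Rfxank rose from 13.9 ± 0.834 to 17.5 ± 0.565 TPM (0.32, limma adjusted p = 0.0273), and Rfxap, Nfya, Nfyb, Nfyc, Creb1 and Atf1 did not pass. Ciita, the class II counterpart of Nlrc5, was at 0.208 ± 0.0316 and 0.301 ± 0.0732 TPM and was not tested.

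Of 10 listed interferon genes, the 6 found in the table were under 1 TPM in all libraries, with 0.450 TPM as the top value. Ifng was not analysed here. Of 13 receptor and signalling genes 9 rose and none fell (median 0.50), beside 23.4% higher and 27.1% lower among all tested genes. Ifngr1, a chain of the interferon-gamma receptor, rose from 54.7 ± 2.30 to 79.5 ± 8.62 TPM (0.53, limma adjusted p = 0.00872) and its partner Ifngr2 from 43.1 ± 2.70 to 73.7 ± 2.37 TPM (0.76, limma adjusted p = 0.00136). Jak2, which signals from that receptor, rose from 41.1 ± 2.08 to 86.8 ± 1.03 TPM (1.06, limma adjusted p = 0.000494). Usp18, an inhibitor of type I interferon signalling that is itself induced by it, rose from 1.12 ± 0.0685 to 5.31 ± 0.275 TPM (1.57, limma adjusted p = 0.000859).

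Of 8 tested genes typical of the interferon-gamma response, 6 rose and none fell (median 0.83), but Gbp3, Gbp4, Irgm2 and Igtp, all risers, reached the filter only through 3D. Of the 4 others 2 rose (median 0.64), beside 23.1% of all tested genes with a mean of at least 1 TPM in both cultures. With a pseudocount of 5 the median of the 8 was 0.45. With a filter of 5 TPM, which fewer genes reached, 2 rose and none fell (median 0.81). Irgm1, an immunity-related GTPase, went from 36.0 and 34.4 TPM to 60.6 and 64.3 TPM (0.81, limma adjusted p = 0.000913), and Cxcl10, a T cell chemokine, from 5.10 ± 0.111 to 11.4 ± 1.10 TPM (1.02, limma adjusted p = 0.00198). Cd274 (PD-L1) was at 6.67 ± 0.281 and 6.13 ± 0.560 TPM and did not pass (-0.11, 0.420). Of 9 tested type I interferon targets, 8 rose and none fell (median 0.94; 0.52 with a pseudocount of 5). Ifit1 and Ifih1 reached the filter only through 3D, and 6 of the 7 others rose, again beside 23.1% of tested genes with such means. With a filter of 5 TPM, which fewer genes reached, 4 rose and none fell (median 0.95). Bst2 (tetherin), which holds budding viruses at the cell surface, went from 153 and 140 TPM to 297 and 320 TPM (1.07, limma adjusted p = 0.000626). The interferon response as a whole was already known to be higher in the 3D libraries when these lists were drawn up. Within the 3D libraries, then, interferon target genes with higher levels stood beside H2-K1, H2-D1, B2m, Tapbp and Psmb10, which were also higher. These targets stood as well beside Tap1 and Nlrc5, both lower, and beside Psmb8 and Psmb9 near or under 1 TPM.

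Class II genes served as a comparison. Of the 10 in the table, 7 were under 1 TPM in all libraries, and 3 were tested, of which 2 rose. Cd74, the invariant chain, went from 1.36 ± 0.333 to 13.4 ± 0.524 TPM (2.61, limma adjusted p = 0.000463). H2-DMb1 rose from 2.87 ± 0.487 to 5.83 ± 0.699 TPM (0.82, limma adjusted p = 0.00981), while H2-DMa was at 25.6 ± 3.92 and 26.7 ± 2.48 TPM (0.063, 0.709). The class II chain H2-Aa was at 0.0556 TPM in 2D replicate 1 and listed at 0 in the others.

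Other cells could carry class I, so their markers were checked. Of 20 leukocyte markers 15 were under 1 TPM in all libraries, including Ptprc (CD45), whose values ran from 0.111 to 0.296 TPM. The summed level of the list was 141 to 142 TPM in 2D and 301 to 304 TPM in 3D, which was mostly Cd14 (114 ± 0.805 and 271 ± 0.0660 TPM, higher in 3D, limma adjusted p = 0.000215). Cd3e, a T cell receptor chain, fell from 1.86 ± 0.196 to 0.493 ± 0.00417 TPM (limma adjusted p = 0.00555), and was tested only through its 2D level. All 7 endothelial markers were under 1 TPM, with sums of 1.33 to 2.08 TPM in 2D and 1.92 to 2.32 TPM in 3D. Of 5 stellate and fibroblast markers 4 were under 1 TPM, and Des fell from 34.9 ± 1.65 to 18.0 ± 1.07 TPM (limma adjusted p = 0.00122). Of 4 cholangiocyte markers, Krt19 (1687 ± 57.0 and 1200 ± 37.0 TPM) and Krt7 fell, Sox9 rose and Epcam was near 0. Of 8 tested hepatocyte markers 6 rose and 2 fell. Those that fell were the keratins Krt18 (6207 ± 112 to 3297 ± 31.2 TPM) and Krt8 (3220 ± 30.2 to 1821 ± 36.4 TPM). With them, the summed level of the list was 9447 to 9648 TPM in 2D and 5663 to 5742 TPM in 3D. Alb was at 0.819 and 1.20 TPM in 2D and 12.7 and 10.0 TPM in 3D, and Asgr1 and Serpina1a were under 1 TPM, so the hepatocyte label was met in part. The part of these shifts in the class I levels was not tested.

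Of the 10 genes, 7 lie in the MHC on chromosome 17 (Tapbp, H2-K1, Psmb9, Tap1, Psmb8, Tap2 and H2-D1, in that order), and their neighbours were examined. Psmb9 and Tap1 run in opposite directions and overlap by 212 bases, Psmb8 follows Tap1 after 495 bases and Tap2 follows Psmb8 after 2072 bases, so that the 4 genes fit in 34334 bases. Within this stretch Tap1 fell, Tap2 separated upward, Psmb8 separated downward and Psmb9 overlapped between cultures. Between the first base of Tapbp and the last base of H2-D1 (33915899 to 35267499) the table lists 128 genes. Of the 66 tested, 29 were higher (43.9%) and 10 lower (15.2%), with a median of 0.20, beside 23.4% and 27.1% among all tested genes. Without the 7 class I genes, 26 of 61 were higher and 9 lower. Of the 66, 3 reached the filter through 1 culture only. The 39 calls fell to 21 without 3D replicate 2.

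The tested genes of the interval were ranked by their difference on the log2(TPM + 1) scale, and genes under the filter were not ranked. Outside the class I genes, the largest rises were those of Cfb, C2 and Gm20522. Cfb (complement factor B) went from 7.71 ± 1.17 to 115 ± 0.546 TPM (3.75, limma adjusted p = 0.000214), C2 (complement component) from 6.16 ± 1.24 to 54.0 ± 0.170 TPM (2.95, limma adjusted p = 0.000374) and the predicted gene Gm20522 from 3.21 ± 1.10 to 8.03 ± 0.751 TPM (1.12, limma adjusted p = 0.0112; 0.0590 without 3D replicate 2). The largest falls were those of Vwa7 (8.17 ± 0.650 to 2.47 ± 0.0209 TPM, -1.40, limma adjusted p = 0.000933), Sapcd1 (3.77 ± 0.114 to 1.21 ± 0.333 TPM, -1.12, limma adjusted p = 0.00455) and Stk19-ps1 (3.46 ± 0.400 to 1.83 ± 0.139 TPM, -0.66, limma adjusted p = 0.0132). Of the other complement genes there, C4b fell (7.66 ± 0.559 to 5.50 ± 0.431 TPM, -0.41, limma adjusted p = 0.0281) and C4a did not pass (0.17, 0.383). Tapbp had the next rise after Cfb and C2, and Tap1 the next fall after Vwa7 and Sapcd1.

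**Figure D5:**
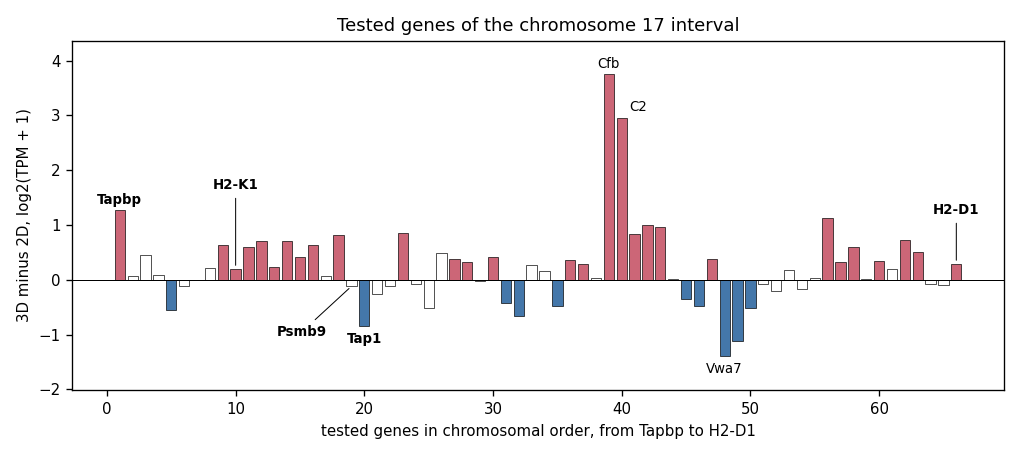
Difference between 3D and 2D on the log2(TPM + 1) scale for the 66 tested genes of the chromosome 17 interval in chromosomal order, 1 bar a gene; red is higher in 3D, blue lower and white not past the threshold, and class I genes are in bold. Tapbp and H2-D1 stand at the ends, Tap1 is a downward bar beside neighbours nearer to 0, and Cfb and C2 stand highest.

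The genes whose profile over the 4 libraries was nearest to the mean profile of the 8 tested class I genes were Amz2, Stag2, Top1mt, Cog1 and Ddx23, at Euclidean distances of 0.0122 to 0.0150 on the centred log2 scale, against a median of 0.389 over all tested genes. Their own differences lay between 0.09 and 0.11, and none passed the test (limma adjusted p from 0.109 to 0.239). In the mean profile the rises and falls of the class I genes cancel in part.

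Across all genes the libraries of a culture resembled each other more than those of the other culture, with a Pearson correlation over genes of 0.991 within 2D, 0.992 within 3D and 0.951 to 0.952 between them. Between 13891 and 14256 genes reached 1 TPM in a library, and mitochondrial genes took 5.37% to 5.44% of the TPM in 2D and 6.51% to 6.78% in 3D. TPM keeps no depth, so the counting error of the low genes (Tap1, Tap2, Psmb8 and Psmb9) is unknown.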

How the data were processed

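RNA-seq libraries of AML12 cells were made with a stranded mRNA kit. Per the study's methods, reads were trimmed with cutadapt 1.8.3 and Trimmomatic 0.36, mapped by strand to GRCm38 (HISAT2 2.0.5) and quantified against Ensembl annotation with StringTie 1.3.4. The TPM values of each library were deposited by the authors, with replicates kept apart. The authors also deposited the log2 fold change and unadjusted p-value of their DESeq2 comparison, which were not used. TPM are relative within a library and hold no depth, so no count model or counting interval was possible.

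For genes averaging at least 1 TPM, log2(TPM + 1) was fitted in limma 3.58.1 (R 4.3.3; lmFit, eBayes with trend and robust variance; culture as the only factor; two-sided; Benjamini-Hochberg over all tested genes, at 0.05). The script was tested on simulated data. Lists were described by counts and medians. The genes and lists were chosen with earlier results of these data known. Named genes are the class I genes, their counterparts, the 3 most abundant of each list, up to 3 called genes of the interval in each direction with the largest change, and the 5 genes of nearest profile. Other named genes were chosen after their values were seen. Alternatives were pseudocounts of 0.1 and 5, other filters (none, 5 TPM), centring, quantile normalization, rescaling without mitochondrial and the 20 highest genes, a constant prior variance, a replicate block, a threshold of 0.01, summed class I rows and each library left out. All 10 genes were found in GENCODE M21, 7 with the same start and end. Promoter sequences are from RefSeq. Figures were drawn with matplotlib 3.10.9 in Python 3.11.15. Hi-C libraries were not analysed here.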

Additional observations from a re-analysis of the deposited data

How the results depend on the processing

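B2m, Tapbp, Tap1 and Nlrc5 kept their direction and their call in all alternatives in which they were tested, with differences of 0.26 to 0.35, 1.19 to 1.31, -1.37 to -0.32 and -1.20 to -0.47. Tap1 and Nlrc5 were not tested with a filter of 5 TPM. H2-K1 (0.19 to 0.23), H2-D1 (0.25 to 0.34) and Psmb10 (0.45 to 0.76) kept their direction, and Psmb9 ran from -0.26 to 0.027, the latter without 2D replicate 2. The median of the class I genes was 0.31 over the 5 genes left by the filter of 5 TPM, 0.26 after centring, 0.28 after quantile normalization, 0.28 after rescaling and 0.23 to 0.26 with a library left out. The count of class I genes higher in 3D was 3 at a threshold of 0.01 and 2 to 5 with a library left out (3 without 3D replicate 1 and 2 without 3D replicate 2), and the count of those lower was 0 with the filter of 5 TPM. Over all genes, 4223 of 7122 calls passed 0.01, and 4720 to 5954 were made with a library left out (4720 without 3D replicate 1). In the chromosome 17 interval, 23 of 39 passed 0.01, and 21 to 35 with a library left out (21 without 3D replicate 2). Where a library is left out, the remaining one of its culture is assumed to vary like the others.

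The ratio of Psmb8 to Psmb5 differed by -0.47 with a pseudocount of 0.1, by 0.21 with 5 and by 0.050 to 0.19 with a library left out. That of Psmb9 to Psmb6 differed by -0.069 with a pseudocount of 0.1 and by -0.19 to 0.22 with a library left out (-0.19 without 2D replicate 1, -0.096 without 3D replicate 2). The median of peptide loading and folding was 0.000981 after centring, 0.00222 after quantile normalization and 0.0139 after rescaling, and that of cytosolic peptidases was -0.00302, -0.0606 and -0.00237 without 2D replicate 1, 2D replicate 2 and 3D replicate 2 and 0.0218 without 3D replicate 1. Genes that changed sign, none of them called, were Psmb9, Psme3, Atf1, H2-DMa and Psmb7. Psmb9 stood at 0.027 without 2D replicate 2. Psme3 stood at 0.019 after quantile normalization and 0.00145 after rescaling. Atf1 ran from -0.15 to 0.16 with a library left out (-0.00142 without 2D replicate 1). H2-DMa stood at -0.088 without 2D replicate 1 and -0.029 without 3D replicate 2. Psmb7 stood at 0.011 without 2D replicate 1 and -0.11 without 2D replicate 2. The cause of these sign changes was not tested. Over 71 named genes and 1125 values, 1051 kept direction and side of the threshold, 58 lost a call, 8 gained one and 8 changed sign.

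Deviations of samples with the same replicate number were nearly uncorrelated (-0.055 over 14116 genes). With 2 libraries a culture, this value cannot decide whether the number pairs them. With the replicate block 6248 genes were called, 6061 of them in the same direction as among the 7122, and the class I counts of 5 higher and 2 lower were unchanged. Depth is unknown, which limits Tap1, Tap2, Psmb8 and Psmb9 most.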
